A study of Mus musculus with 16 samples.

Results

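The data described here are the small RNAs of mature sperm from mice lacking DNMT2 and from their wild-type counterparts, both kept on a normal diet. They come from 4 of the 16 samples of the series and 2 of its 8 groups, picked by genotype and diet alone: 2 libraries of Dnmt2-/- sperm on normal diet and 2 libraries of Dnmt2+/+ sperm on normal diet. The Dnmt2-/- males carried the null allele of the Jackson strain B6;129-Dnmt2tm1Bes/J, backcrossed to C57BL/6NCrl for more than 5 generations, and the Dnmt2+/+ males were C57BL/6NCrl. Age is given only for bought wild-type mice, as 6 weeks. Mature sperm from the cauda epididymis was pelleted, its RNA was taken up in Trizol, and TruSeq small RNA libraries were sequenced. Sperm of both genotypes from males on a high-fat diet (2 libraries each) entered the fits below only to estimate the spread between replicates. Their reads also served to rebuild most of the sequences used for matching. The labels do not tie libraries to animals and do not say whether animals were pooled, so p-values measure only the spread between these libraries, which may be technical. Small RNA reads do not cover the Dnmt2 mRNA, so the knockout itself could not be checked in these data.

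DNMT2 (gene symbol Trdmt1) is an RNA methyltransferase. Its known substrates are the tRNAs for aspartate, glycine and valine with the anticodons GTC, GCC and AAC, in which it methylates the cytosine at base 38, at the 3' edge of the anticodon loop. That methyl group is known to protect these tRNAs from cleavage by nucleases. Mature sperm from the cauda epididymis is known to be rich in tRNA 5' fragments, which run from the first base of a tRNA into the anticodon stem or loop. Cytosine methylated at carbon 5 pairs normally during reverse transcription, so the mark itself is not seen as a mismatch in reads of this kind. The data therefore bear on where tRNAs were cut, which fragments and microRNAs were present, and where reads differed from the tRNA sequence.

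Bases are counted in the standard tRNA numbering from the 5' end, with the first anticodon base as 34 and the DNMT2 target as 38. The first set shows the 3 substrates and 2 of the other tRNAs on which the results turn, with the anticodon and base 38 in capitals. They were rebuilt from the reads, with the CCA end that is added after transcription. In Val-AAC the first anticodon base is known to be deaminated to inosine, which is read as G, and the printed sequence is as read. Base 58 of Gly-GCC is also printed as read, as T, where Asp-GTC has A. That base is a known site of a methylated A that is misread, so the Gly-GCC genes may have A there.
Gly-GCC: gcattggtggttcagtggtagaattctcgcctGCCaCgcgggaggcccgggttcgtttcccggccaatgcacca
Asp-GTC: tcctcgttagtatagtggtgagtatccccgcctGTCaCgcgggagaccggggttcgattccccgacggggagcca
Val-AAC: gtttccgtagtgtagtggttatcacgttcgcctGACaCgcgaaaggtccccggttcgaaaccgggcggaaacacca
Lys-CTT: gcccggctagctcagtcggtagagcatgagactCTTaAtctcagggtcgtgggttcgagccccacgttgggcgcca
His-GTG: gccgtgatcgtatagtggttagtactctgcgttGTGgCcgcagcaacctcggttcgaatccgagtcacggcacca
RefSeq (GRCm38.p6) lists 14 genes for Gly-GCC, on chromosomes 1, 2, 3, 4, 8, 11 and 13. It lists 16 for Asp-GTC on chromosomes 1, 2, 5, 10, 11 and 13, and 8 for Val-AAC on chromosomes 3, 4, 11 and 13. A read cannot be traced to 1 of these copies, because they share most or all of their sequence.

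The second set shows the 5' fragments that carry end positions and mismatches described below. Capitals mark the last base of a fragment, the changed base, or the G that is added in front of His-GTG after transcription. A substitution is written as the base of the tRNA, its position and the base read (G6T).
Gly-GCC ending at base 31: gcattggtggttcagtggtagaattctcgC
Gly-GCC ending at base 32: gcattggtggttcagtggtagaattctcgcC
Gly-GCC G6T: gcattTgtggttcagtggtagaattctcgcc
Gly-GCC G30T: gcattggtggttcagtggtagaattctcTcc
His-GTG with the added G: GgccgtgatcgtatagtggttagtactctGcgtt
His-GTG with the added G and G29T: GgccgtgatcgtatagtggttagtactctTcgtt

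The Dnmt2-/- libraries held 13181541 and 13150403 reads and the Dnmt2+/+ libraries 19030258 and 13649529, in that order for replicates 1 and 2, which is the order of all pairs of values here. All reads were 18 to 44 nucleotides (nt) long, and levels are reads per 1000000 reads of the library (CPM), so that 3 reads, taken as the detection floor, come to 0.228 and 0.228 CPM against 0.158 and 0.220 CPM. One of the Dnmt2+/+ libraries stood apart in its read errors. In both Dnmt2-/- libraries and Dnmt2+/+ replicate 1, a G at read base 29 that follows a T was read as T in 96.2% and 98.3% of cases, against 98.2%, whereas in Dnmt2+/+ replicate 2 this happened in 0.0845%. The 4 high-fat libraries lacked this error as well. The labels name no sequencing batch, so Dnmt2+/+ replicate 2 is set apart here by the measured error alone, and the main results are given with and without it. Exact matching drops reads that carry the error, so fragments of tRNAs with such a G are undercounted in the other 3 libraries. For the tRNAs this touches most, values with any base allowed at read bases 29 and 30 are given beside the exact ones. Without Dnmt2+/+ replicate 1 or 2, 1 Dnmt2+/+ library was left, assumed to vary like the libraries of the other groups. Dnmt2+/+ replicate 1 stood apart in another way, being poor in the longest reads. Reads of 41 to 44 nt made up 0.555% and 0.324% of Dnmt2-/- libraries, against 0.0439% and 0.772% of Dnmt2+/+ libraries. The 2 libraries of each group differed by more than sampling noise, with a mean chi-square per sequence of 41.6 over 33298 sequences in Dnmt2-/- sperm and 178 over 40034 in Dnmt2+/+ sperm.

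Of the reads that matched a class, most were tRNA 5' fragments, followed by ribosomal RNA fragments. The share of microRNAs was lower in both Dnmt2-/- libraries than in both Dnmt2+/+ libraries. Exact matches to tRNA 5' fragments, defined as starting within the first 3 bases of a tRNA, made up 41.1% and 41.3% of Dnmt2-/- reads, against 44.4% and 34.7% of Dnmt2+/+ reads. The Dnmt2-/- values lay between those of the wild type. With up to 1 mismatch the shares were 56.6% and 53%, against 56.6% and 49%. MicroRNAs made up 1.08% and 1.33% of Dnmt2-/- reads, against 2.76% and 2.10% of Dnmt2+/+ reads. The groups did not overlap, but an exact permutation test of 2 libraries against 2 cannot give a two-sided p below 0.333, so no class share can pass a test in this design.

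Fragments of tRNA 3' ends, which end within the last 3 bases of the CCA end, were rare. They made up 0.0391% and 0.0353% of Dnmt2-/- reads, against 0.0216% and 0.124% of Dnmt2+/+ reads, with the Dnmt2+/+ libraries at both extremes. Internal tRNA fragments made up 0.232% and 0.193%, against 0.198% and 0.572%. Ribosomal RNA fragments made up 7.48% and 10.1% of Dnmt2-/- reads, against 5.58% and 12.0% of Dnmt2+/+ reads, and most of them came from the 5' end of 28S rRNA (6.30% and 8.42%, against 4.07% and 10.1%). Fragments of 5S rRNA were lower in both Dnmt2-/- libraries, at 0.343% and 0.293% against 0.396% and 0.530%. Y RNA fragments, from a small noncoding RNA that binds the Ro protein, made up 0.00836% and 0.00503% against 0.00374% and 0.0119%. Another 50.1% and 47.0% of Dnmt2-/- reads and 47.1% and 50.4% of Dnmt2+/+ reads matched none of these sequences exactly, of which some are tRNA reads with a mismatch.

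Read lengths peaked at 31 nt, the length of the main Glu-CTC and Gly-GCC fragments, which held 29.6% and 25.6% of Dnmt2-/- reads, against 25.5% and 24.5% of Dnmt2+/+ reads. Both Dnmt2-/- libraries were above both Dnmt2+/+ libraries. The 22-nt reads, the usual microRNA length, made up 1.14% and 1.42%, against 2.78% and 2.23%, in the same order of groups as the microRNA share. Reads of 35 to 40 nt made up 10.6% and 10.3%, against 9.28% and 9.69%.

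**Figure D1:**
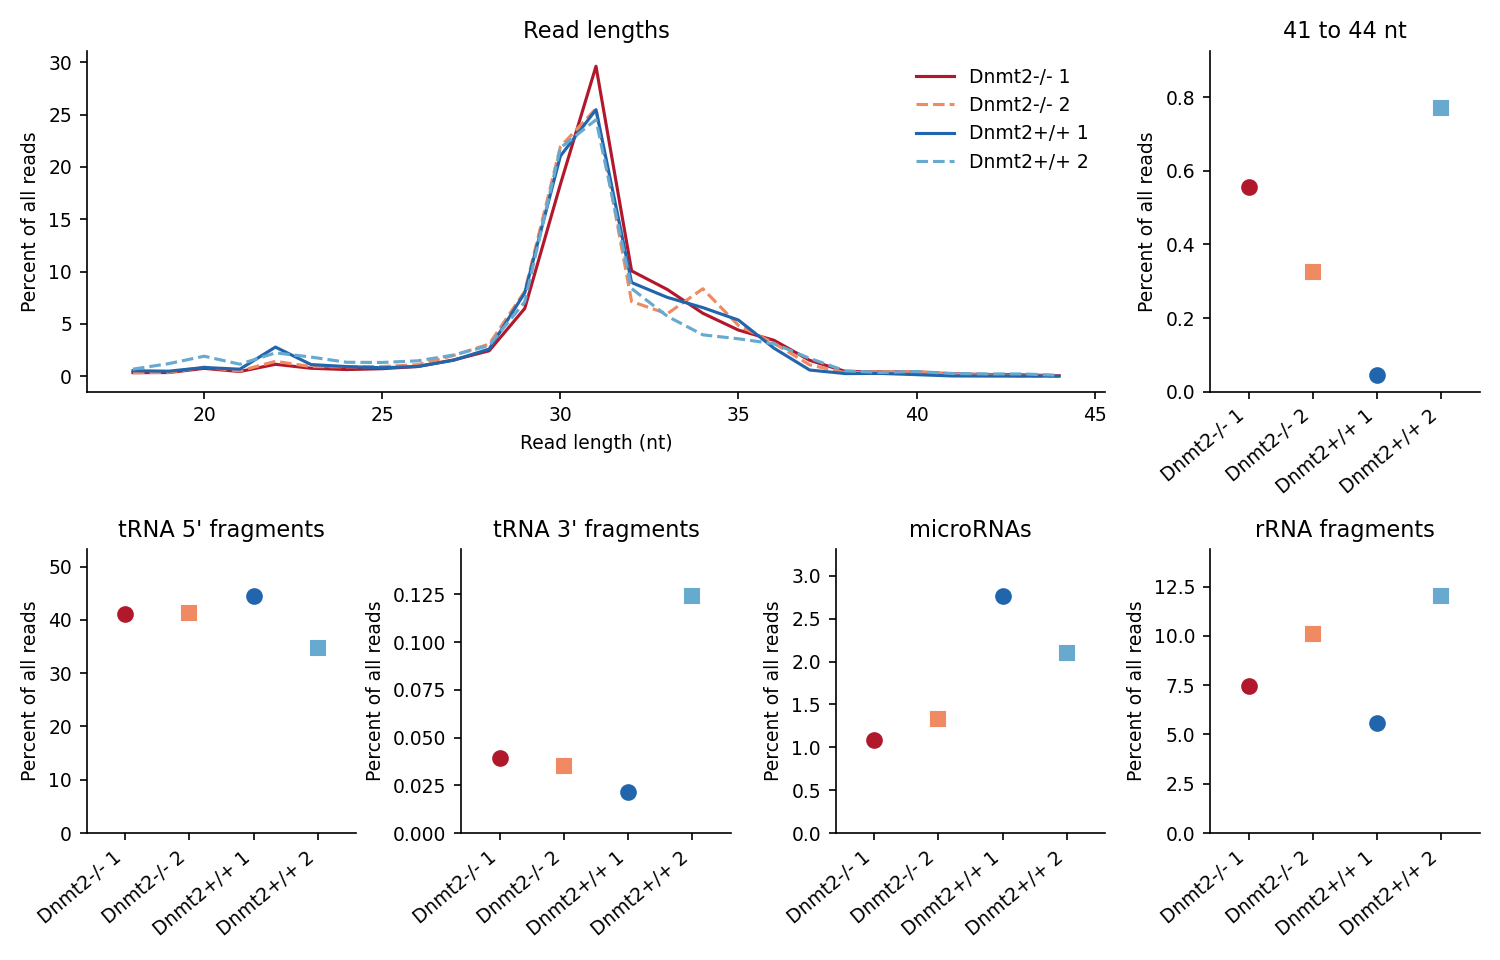
Read lengths of the 4 libraries as a percentage of all reads (top: by length in nt, and the share of 41 to 44 nt reads; bottom: the shares of 4 small RNA classes), with 1 line or point per library. The microRNA share is lower in both Dnmt2-/- libraries, at 1.08% and 1.33%, than in both Dnmt2+/+ libraries, at 2.76% and 2.10%, while Dnmt2+/+ replicate 1 holds only 0.0439% of long reads.

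Among tRNA fragments grouped by tRNA and by kind (5', 3' or internal), the fragments of the 3 substrates of DNMT2 did not differ between genotypes beyond the spread between libraries. The 5' fragments of Gly-GCC, the most abundant of the substrates, were at 136800 and 106207 CPM in Dnmt2-/- sperm, against 98595 and 179319 CPM in Dnmt2+/+ sperm (log2 fold change -0.19 ± 0.52 SE, adjusted p = 0.964 by edgeR's quasi-likelihood test). The wild-type libraries were the lowest and the highest of the 4. Without Dnmt2+/+ replicate 2 the log2 fold change was 0.30 ± 0.26, and without replicate 1 it was -0.56 ± 0.24, so the direction followed the choice of wild-type library.

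Asp-GTC 5' fragments were at 223 and 128 CPM, against 72.1 and 216 CPM (log2 fold change 0.29 ± 0.89 SE, edgeR adjusted p = 0.964). Asp-GTC 3' fragments were at 217 and 126 CPM, against 81.2 and 539 CPM (-0.85 ± 0.90). In both, Dnmt2+/+ replicate 1 was the lowest library. Val-AAC 5' fragments showed that pattern too, at 192.5 and 101.9 CPM against 43.6 and 233.5 CPM. These are only the reads that reach base 34, since shorter ones cannot be told from Val-CAC. The 5' fragments shared with Val-CAC were more abundant, at 3959 and 2808 CPM against 2239 and 4611 CPM. Their log2 fold change without Dnmt2+/+ replicate 2 was 0.60 ± 0.62. Within the 3 libraries that share the read error, all 3 substrates had more 5' fragment reads in both Dnmt2-/- libraries than in Dnmt2+/+ replicate 1 (log2 fold changes of 0.30 ± 0.26 for Gly-GCC, 1.28 ± 0.81 for Asp-GTC and 1.76 ± 0.88 for Val-AAC). None of these passed (edgeR adjusted p of 0.574, 0.453 and 0.325). Of all 54 families tested, 26 (48.1%) were above Dnmt2+/+ replicate 1 in both Dnmt2-/- libraries and 14 (25.9%) below, and in the same 3 libraries Gly-CCC and Lys-CTT, which are not DNMT2 substrates, had values of 1.70 ± 0.73 and 0.83 ± 0.77 (Gly-CCC was picked after its values were seen).

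Glu-CTC, a tRNA outside the substrates and the most abundant source of fragments, had 263601 and 298828 CPM of 5' fragments in Dnmt2-/- sperm, against 336873 and 142843 CPM in Dnmt2+/+ sperm. The Dnmt2-/- values again lay between those of the wild type (log2 fold change 0.23 ± 0.47 SE, edgeR adjusted p = 0.944). Set against Dnmt2+/+ replicate 2 alone it was 0.98 ± 0.21 (adjusted p = 0.000104), and against replicate 1 alone -0.26 ± 0.19 (adjusted p = 0.572). His-GTG 5' fragments, counted by exact match, were at 911 and 2120 CPM in Dnmt2-/- sperm, against 2824 and 3552 CPM in Dnmt2+/+ sperm (-1.07 ± 0.80, edgeR adjusted p = 0.823; -0.90 ± 0.63 without Dnmt2+/+ replicate 2). The read error falls in this fragment, and with any base allowed at read bases 29 and 30 it was at 3653 and 8662 CPM, against 10485 and 3647 CPM, where the groups overlapped (-0.20 ± 0.74, adjusted p = 0.982). Glu-TTC 5' fragments were at 1854 and 1439 CPM by exact match, against 1302 and 11499 CPM. With any base allowed at the same 2 read bases they were at 3944 and 3085 CPM, against 2681 and 11874 CPM (-1.05 ± 0.75, adjusted p = 0.849), so Dnmt2+/+ replicate 2 was the highest library in both counts.

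Of 54 families tested, 1 passed an adjusted p of 0.05 (Benjamini-Hochberg over the families), which is 1.85%. It was the 5' fragment of Thr-TGT, with 0 reads in both Dnmt2-/- libraries and in Dnmt2+/+ replicate 1 and 56 reads (4.10 CPM) in Dnmt2+/+ replicate 2 (edgeR adjusted p = 0.00782), so the call rests on Dnmt2+/+ replicate 2 alone. Base 29 of Thr-TGT is a G that follows a T, so the read error falls there and exact matching drops the reads that carry it. With any base allowed at read bases 29 and 30 the log2 fold change was -2.31 (edgeR adjusted p = 0.643). DESeq2 called no family, with 6 at an unadjusted p under 0.05. In 10 families (18.5%) both Dnmt2-/- values lay below both Dnmt2+/+ values, and in 0 (0%) above them. Against Dnmt2+/+ replicate 2 alone, 16 of 55 families were lower (29.1%) and 1 was higher (1.82%), and in 2 of these 16 and 0 of the 1 did Dnmt2+/+ replicate 1 lie on the same side of both Dnmt2-/- libraries. Against Dnmt2+/+ replicate 1 alone no family passed in edgeR, with 8 higher and 0 lower at an unadjusted p under 0.05. The median log2 fold change over families was -0.675 on the scale of all reads and -0.0615 after TMM scaling, so the preponderance of lower values holds only on the scale of all reads.

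The cuts that make 5' fragments fell at the same main bases in both genotypes, and at most of the main end positions the groups overlapped. In Gly-GCC, 64.8% and 59.7% of 5' fragments ended at base 32 in Dnmt2-/- sperm, against 64.8% and 42.8% in Dnmt2+/+ sperm (log2 fold change 0.21 ± 0.32 SE, edgeR adjusted p = 0.982). Base 31 took 14.5% and 20.8%, against 16.9% and 36.2% (-0.59 ± 0.42), and base 33 took 10.5% and 8.51%, against 9.05% and 10.5%. Dnmt2+/+ replicate 1 lay between or next to the Dnmt2-/- libraries at all 3 bases, and replicate 2 had more of the shorter fragment. The mean end was base 31.77 and 31.62, against 31.71 and 31.56.

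In Asp-GTC the main end was base 34, the first base of the anticodon, with 45.3% and 58.1% of 5' fragments in Dnmt2-/- sperm, against 50.7% and 42.9% in Dnmt2+/+ sperm (log2 fold change 0.14 ± 0.36 SE, edgeR adjusted p = 0.982). Bases 35 and 36 took 17.7% and 9.75%, against 13.5% and 17.6%, and 19.0% and 9.45%, against 14.9% and 11.5%. The 2 Dnmt2-/- libraries lay further apart from each other at base 36 than the 2 Dnmt2+/+ libraries did. Among the Val-AAC reads that reach base 34, base 36 took 45.2% and 61.7%, against 47.3% and 56.7%, and base 34 took 46.5% and 27.6%, against 40.2% and 35.5%. Reads that Val-AAC shares with Val-CAC ended at base 23, in the D arm, in 18.7% and 40.6%, against 41.6% and 18.2%, so the libraries of each genotype lay far apart. The whole anticodon loop, bases 32 to 38, held 90.5% and 86.9% of Asp-GTC ends against 90.7% and 83.7%, and 77.7% and 69.6% of Gly-GCC ends against 74.8% and 56.1%.

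Ends at or beyond base 38, the DNMT2 target, were rare in every tRNA. In Asp-GTC they made up 0.984% and 3.33% of 5' fragments in Dnmt2-/- sperm (29 and 56 reads), against 0.510% and 0.814% in Dnmt2+/+ sperm (7 and 24 reads). Both Dnmt2-/- libraries were above both Dnmt2+/+ libraries. In Gly-GCC the share was 0.0144% and 0.0255%, against 0.000853% and 0.0226%. In Val-AAC it was 0.709% and 0.896%, against 0.603% and 0.282%, of only the reads that reach base 34. Glu-CTC, outside the substrates, had 0.0254% and 0.0118%, against 0.00934% and 0.00913%, in the same order. In 2 other tRNAs the order depended on how reads were matched. His-GTG had 0.0999% and 0.0969%, against 0 and 0.0454%, by exact match, and 0.0395% and 0.0377%, against 0 and 0.0442%, with any base at read bases 29 and 30, where the groups overlapped. Lys-CTT had 1.14% and 0.513%, against 0.163% and 0.521%, by exact match, and 1.2% and 0.554%, against 0.177% and 0.539%, with any base there, where they did not. On the high-fat diet the order was the other way in Asp-GTC, with 1.91% and 3.72% in Dnmt2-/- and 6.89% and 4.56% in Dnmt2+/+ libraries. These fragments are among the longest reads, of which Dnmt2+/+ replicate 1 had few (0.0439% of its reads at 41 to 44 nt), and the part of that shortage in these shares was not tested.

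Glu-CTC 5' fragments ended mainly at base 31, in 28% and 32% of Dnmt2-/- reads against 27.2% and 34.2% of Dnmt2+/+ reads, and at base 30, in 23.2% and 29.1% against 26.3% and 22.8%. Lys-CTT fragments ended at base 33 in 55.0% and 56.8%, against 69.5% and 26.1%, with the Dnmt2-/- libraries between the Dnmt2+/+ libraries. His-GTG fragments ended at base 26 in 16.9% and 21.1%, against 19.9% and 1.65%, by exact match. Those that end there are too short to carry the read error, and with any base at read bases 29 and 30 the shares were 4.21% and 5.16%, against 5.35% and 1.61%. Of 215 end positions tested, 0 passed in edgeR (0%), with 9 at an unadjusted p under 0.05, and DESeq2 called 0. The lowest p was that of His-GTG ends at base 43, at 0.0333% and 0.0538% against 0 and 0.00206% (edgeR adjusted p = 0.788), again among the longest reads. In 26 positions (12.1%) both Dnmt2-/- values lay above both Dnmt2+/+ values and in 14 (6.51%) below. None passed against either Dnmt2+/+ library alone, with 20 and 54 at an unadjusted p under 0.05 against replicates 1 and 2.

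**Figure D2:**
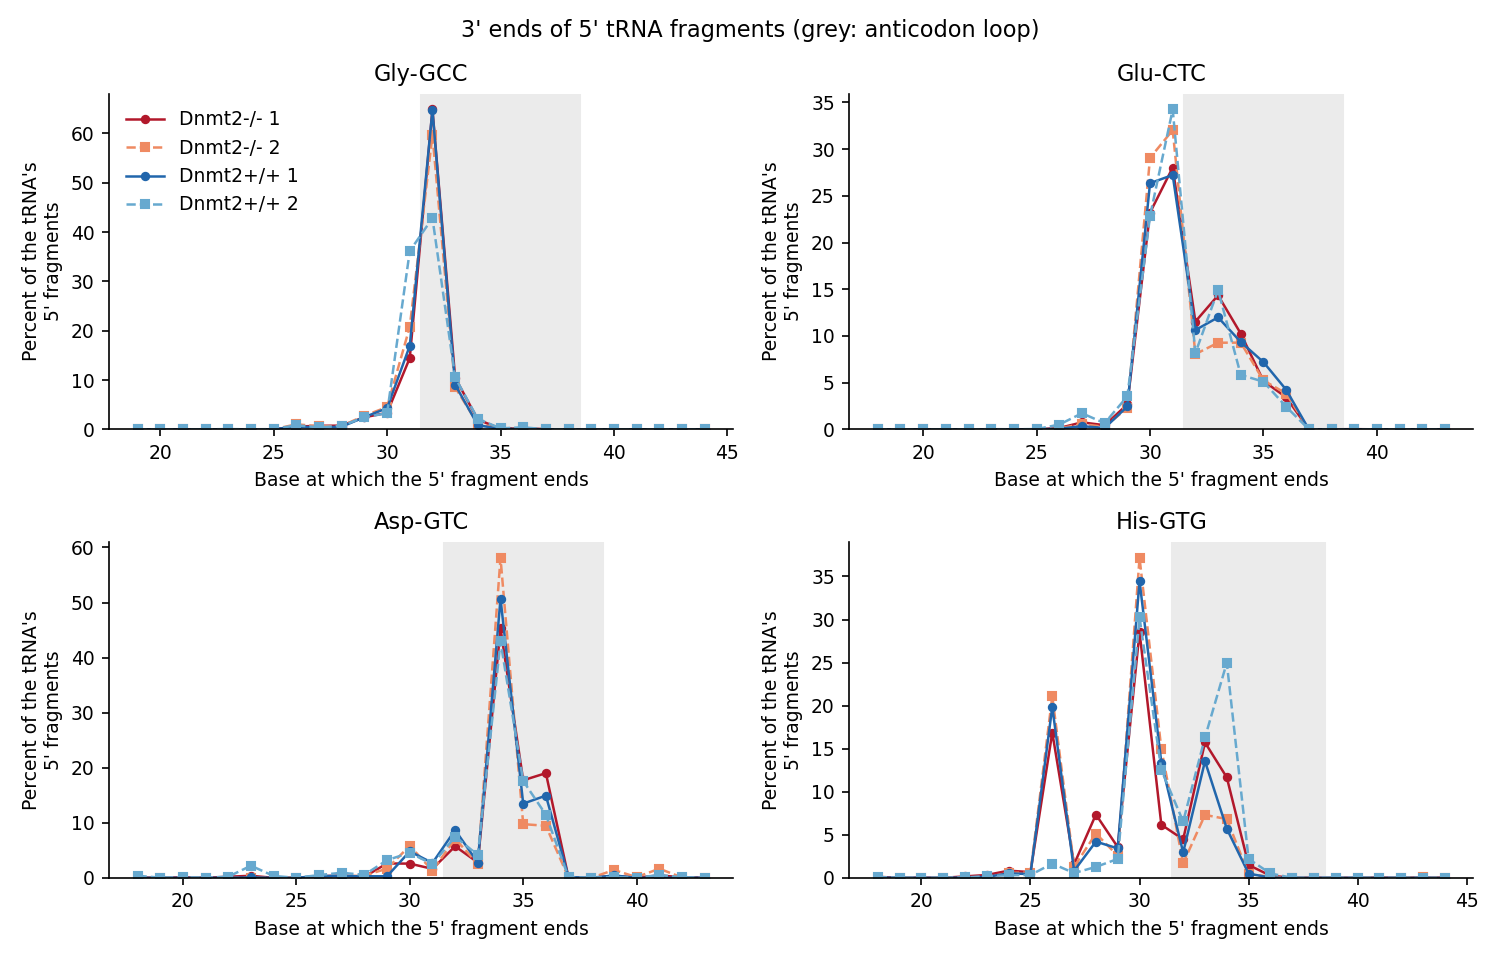
Share of the 5' fragments of Gly-GCC, Glu-CTC, Asp-GTC and His-GTG (in %) that end at each base in standard tRNA numbering, with 1 line per library and the anticodon loop, bases 32 to 38, in grey. The profiles of both genotypes peak at the same bases, and at base 32 of Gly-GCC the Dnmt2+/+ replicate 2 value of 42.8% lies below the other 3 libraries, at 64.8%, 59.7% and 64.8%.

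The starts of 3' fragments also show where tRNAs were cut, but they did not mirror the ends of 5' fragments. In Asp-GTC, starts at bases 39 and 40 were common, while few 5' fragments ended at or beyond base 38. In Asp-GTC 3' fragments started mainly at base 37, in 38% and 34.5% of Dnmt2-/- reads against 41% and 27.7% of Dnmt2+/+ reads, at base 40, in 28.2% and 31.2% against 26.3% and 34.1%, and at base 39, in 16.7% and 19.7% against 23.8% and 26%. Base 39 was lower in both Dnmt2-/- libraries, by less than the test resolves (log2 fold change -0.45 ± 0.21 SE, edgeR adjusted p = 0.625). Starts at base 38 itself, which need a cut between bases 37 and 38, made up 5.20% and 3.63% in Dnmt2-/- sperm (149 and 60 reads), against 1.36% and 2.53% in Dnmt2+/+ sperm (21 and 186 reads). Both Dnmt2-/- libraries were above both Dnmt2+/+ libraries, and the log2 fold change of 1.15 ± 0.36 did not pass (edgeR adjusted p = 0.294). It was 1.71 ± 0.42 without Dnmt2+/+ replicate 2 (adjusted p = 0.125) and 0.81 ± 0.36 without replicate 1 (adjusted p = 0.349). Sperm of males on the high-fat diet had 3.16% and 4.20% in Dnmt2-/- libraries against 4.26% and 4.52% in Dnmt2+/+ libraries, where the order of the groups was the other way. Starts at base 38 of Glu-CTC, not a DNMT2 substrate, made up 6.08% and 4.32%, against 1.85% and 3.53%, with the groups in the same order as in Asp-GTC. These shares rest on few reads, 22 and 8 against 4 and 30.

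Gly-GCC 3' fragments counted by exact match started mostly in the T arm, and few started in the anticodon loop. The Gly-GCC sequence used has T at base 58, so reads with another base there are not among them. Asp-GTC was matched with A at that base. Base 55 took 81.2% and 88.0% in Dnmt2-/- sperm, against 89.8% and 87.5% in Dnmt2+/+ sperm. Base 54 took 6.81% and 6.07% (25 and 46 reads), against 3.83% and 2.63% (21 and 50 reads). Base 58 took 3.54% and 3.03% (13 and 23 reads), against 0.547% and 1.16% (3 and 22 reads). At both minor starts the Dnmt2-/- libraries were higher, and neither passed (log2 fold changes of 1.02 ± 0.40 and 1.84 ± 0.90 SE, edgeR adjusted p of 0.434 and 0.673). Glu-TTC starts at base 43 made up 5.40% and 8.44%, against 2.26% and 1.55%, and had the lowest p of all starts (log2 fold change 1.92 ± 0.49, edgeR adjusted p = 0.293). With any base at read bases 29 and 30 it was 2.61% and 3%, against 1.19% and 1.53% (1.01 ± 0.46, adjusted p = 0.977).

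Of 97 start positions tested, edgeR called 0 (0%), with 8 at an unadjusted p under 0.05, and DESeq2 called 0. In 22 of them (22.7%) both Dnmt2-/- values lay above both Dnmt2+/+ values, and in 6 (6.19%) below. Against Dnmt2+/+ replicate 2 alone 1 start was lower (0.82%), the start of Glu-TTC at base 40, which held 7.67% and 7.59% against 8.06% and 43.2%. With any base at read bases 29 and 30 it held 43.6% and 61.1% against 44.7% and 41.7%, so Dnmt2+/+ replicate 2 was no longer the highest. Against Dnmt2+/+ replicate 1 alone 0 of 114 passed, with 15 at an unadjusted p under 0.05.

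**Figure D3:**
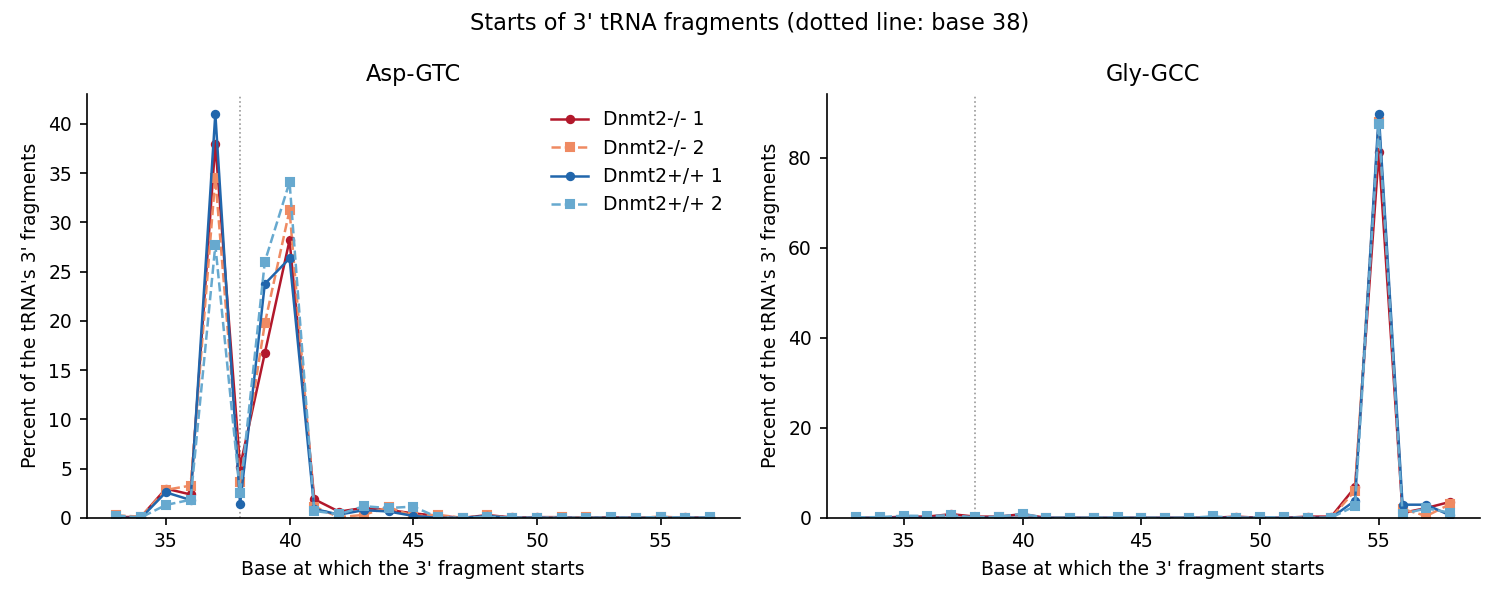
Share of the 3' fragments of Asp-GTC and Gly-GCC (in %) that start at each base in standard tRNA numbering, with 1 line per library and a dotted line at base 38, the DNMT2 target. At base 38 of Asp-GTC the Dnmt2-/- libraries, at 5.20% and 3.63%, are above the Dnmt2+/+ libraries, at 1.36% and 2.53%.

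The outer ends of the fragments differed between the 2 kinds of tRNA end more than between genotypes. The CCA end was complete in 63.8% and 67.5% of Gly-GCC 3' fragments in Dnmt2-/- sperm, against 72.3% and 77.0% in Dnmt2+/+ sperm, and lacked 1 base in 29.4% and 29.4%, against 19.9% and 15.7%. The Dnmt2-/- libraries were on 1 side of both wild-type libraries, over 367 and 758 reads against 548 and 1900 reads. These are exact matches only, with T at base 58. In Asp-GTC most 3' fragments lacked 2 bases of the CCA end, in 69.1% and 72.8% against 81.5% and 65.2%, where the groups overlapped. The 5' fragments started at base 1 in 99.5% and 99.5% of Gly-GCC reads against 99.3% and 99.4%, and in 98.5% and 97.4% of Asp-GTC reads against 97.5% and 98.4%. The G that is added to His-GTG was present in 80.2% and 76.1% of its 5' fragments, against 82.2% and 59.6%, with Dnmt2+/+ replicate 2 the lowest.

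Mismatches to the tRNA sequence were counted at every base, because several tRNA modifications other than the DNMT2 mark are misread by reverse transcriptase. At base 38 itself mismatches were rare in both genotypes. In Asp-GTC 0.263% and 0.531% of the reads over base 38 differed from the tRNA in Dnmt2-/- sperm (16 of 6079 and 19 of 3577), against 0.277% and 0.252% in Dnmt2+/+ sperm (9 of 3250 and 25 of 9918). In Gly-GCC it was 0.382% and 0.577% (5 of 1308 and 9 of 1561), against 0.174% and 0.193% (1 of 574 and 7 of 3622). In Val-AAC it was 0 in all 4 libraries, over only 115 and 100 reads against 175 and 946. Glu-CTC, not a substrate, had 0.603% and 0.542%, against 0.649% and 0.304%. With so few mismatched reads a difference at base 38 was not detectable at this depth.

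The most frequent mismatches were at the same bases and at about the same rate in both genotypes, apart from those of the shared read error. In Glu-CTC, 1 of the 2 G at bases 6 and 7 was missing in 24.7% and 24.3% of Dnmt2-/- reads, against 24.7% and 30.4% of Dnmt2+/+ reads (log2 fold change -0.17 ± 0.33 SE, edgeR adjusted p = 0.909). In Gly-GCC the change G6T was found in 14% and 12.1%, against 12.3% and 14.8% (-0.06 ± 0.31), and a missing base at 6 or 7 in 8.34% and 7.96%, against 7.23% and 9.18%. In all 3 the groups overlapped. The G6T fragment printed above alone had 20819 and 11066 CPM in Dnmt2-/- sperm, against 11656 and 18996 CPM in Dnmt2+/+ sperm.

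Base 58 of tRNAs is a known site of N1-methyladenosine, which reverse transcriptase misreads. In Glu-CTC the change A58T was found in 51.8% and 49.2% of Dnmt2-/- reads over that base, against 48.6% and 42.0% of Dnmt2+/+ reads (log2 fold change 0.16 ± 0.28 SE, edgeR adjusted p = 0.901). Both Dnmt2-/- values were higher, by less than the 2 Dnmt2+/+ libraries differed. In Gly-CCC the rebuilt sequence itself has T at base 58, the base most reads carried. T58A there is therefore the rarer read, and its rate is not a misread rate like that of A58T. An A was read in 17.2% and 23.4%, against 24.8% and 22.6%. The change G9C in Pro-AGG and Pro-CGG, at a base methylated in many tRNAs, was found in 14.4% and 13.3%, against 12.3% and 14.2%. G5A in Ala-AGC, at 60% and 79.6% against 80.0% and 50%, and G67A in Glu-TTC, at 25.7% and 27.5% against 26.3% and 32.4%, may be reads of tRNA genes that are not among the 21 sequences used here.

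The read error of 3 libraries sets other mismatches. G30T in Gly-GCC was read in 8.66% and 8.68% of Dnmt2-/- reads, against 8.69% and 0.0252% of Dnmt2+/+ reads, and G29T in His-GTG in 71.8% and 75.8%, against 73.5% and 0.0762%. These were called against Dnmt2+/+ replicate 2 alone in His-GTG (log2 fold change 9.92 ± 0.61 SE, edgeR adjusted p = 0.00271) and not against Dnmt2+/+ replicate 1 alone (0.01 ± 0.36). Both changes sit where the read error falls and separate libraries, not genotypes.

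Of 1020 mismatch sites tested, edgeR called 0 (0%), with 36 at an unadjusted p under 0.05, and DESeq2 called 0. In 212 (20.8%) both Dnmt2-/- values lay above both Dnmt2+/+ values, and in 114 (11.2%) below. Against Dnmt2+/+ replicate 2 alone 45 of 1181 were higher (3.81%) and 24 lower (2.03%), and against Dnmt2+/+ replicate 1 alone 0 of 1167 passed, with 34 at an unadjusted p under 0.05. Among the sites with the lowest p was G73C in Asp-GTC, the base before the CCA end, at 0.207% and 0.357% against 0.0481% and 0.0765%. Another was C63T in Glu-TTC, at 0.0740% and 0.0423% against 0.362% and 0.363%. These rates rest on few reads, 8 and 8 against 1 and 8 for G73C, and 2 and 1 against 8 and 33 for C63T. The change was on the last base of the read in 48% of the G73C reads and 81.8% of the C63T reads. Both had groups that did not overlap, and neither passed (edgeR adjusted p = 0.858 for both). Without Dnmt2+/+ replicate 2 the log2 fold changes were 2.43 ± 0.88 for G73C and -2.57 ± 0.89 for C63T.

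One change at base 32 of Glu-CTC separated the genotypes on normal diet in both wild-type libraries alike. It was chosen after its values were seen. Among Glu-CTC reads that went on to base 33, C32T was found in 1.28% and 1.39% in Dnmt2-/- sperm (24427 of 1910005 and 23497 of 1690038 reads), against 0.0836% and 0.0701% in Dnmt2+/+ sperm (2736 of 3272416 and 704 of 1004661). The 95% Wilson intervals, which cover counting error only, were 1.26% to 1.29% and 1.37% to 1.41%, against 0.0805% to 0.0868% and 0.0651% to 0.0754%. The 2 libraries of each genotype were close to each other and far from the other genotype, also in Dnmt2+/+ replicate 1, which shares the read error of the Dnmt2-/- libraries.

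The same change was at 0.114% and 0.106%, against 0.0937% and 0.0910%, in Gly-GCC, and at 0.0547% and 0.0794%, against 0.158% and 0.0311%, in Lys-CTT, where base 32 is also read base 32. Sperm from high-fat males had the Glu-CTC change at 0.252% and 0.403% in Dnmt2-/- libraries, against 1.16% and 0.695% in Dnmt2+/+ libraries. There the order of genotypes was the other way, so the change did not follow the genotype across diets. Counted over all reads that cover base 32, including those that end there, it was at 2.51% and 2.08%, against 0.831% and 2.07%, with the lower Dnmt2-/- value barely above the higher Dnmt2+/+ value (log2 fold change 0.66 ± 0.62 SE, edgeR adjusted p = 0.858). The rate among reads going on to base 33 was not tested, since it was chosen from these values.

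A missing base 32 in Glu-CTC, at 0.0344% and 0.0227% of all reads over it against 0.00206% and 0.00770%, had the lowest p of all mismatch sites (log2 fold change 2.57 ± 0.66 SE, edgeR adjusted p = 0.858).

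**Figure D4:**
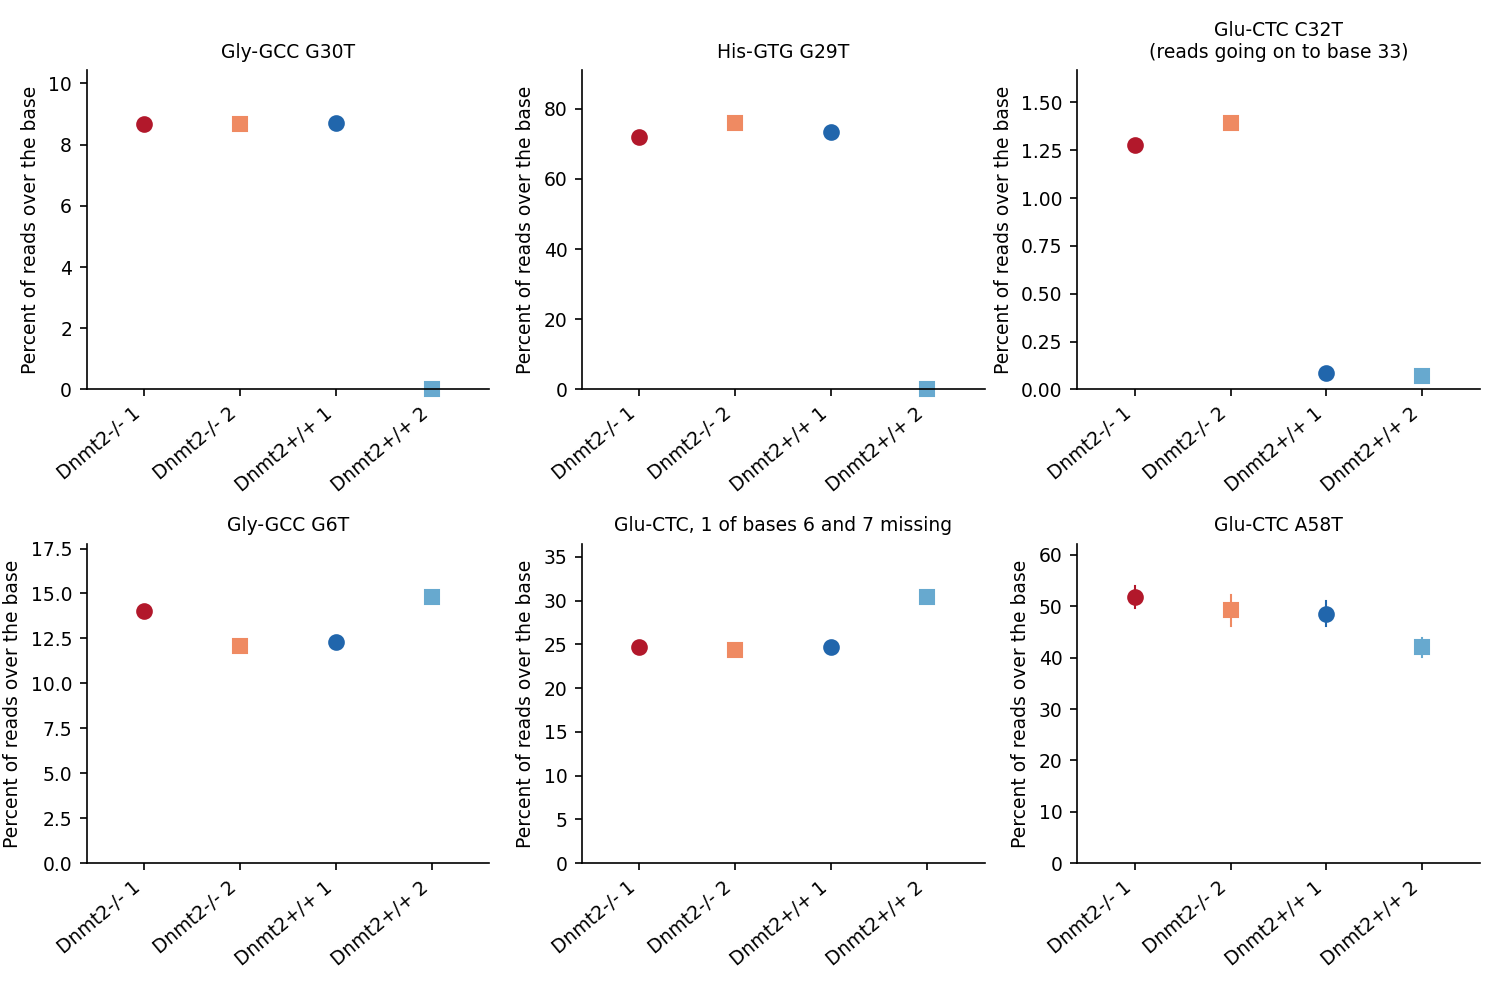
Share of reads over the site that carry the change (in %) at 6 sites, with 1 point per library, Dnmt2-/- left of Dnmt2+/+, and 95% Wilson intervals that cover counting error only. Glu-CTC C32T is at 1.28% and 1.39% in Dnmt2-/- libraries and at 0.0836% and 0.0701% in Dnmt2+/+ libraries, while Gly-GCC G30T and His-GTG G29T are near 0 in Dnmt2+/+ replicate 2 alone.

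Over all distinct sequences with enough reads, edgeR called 0 of 50460 (0%), with 2217 at an unadjusted p under 0.05, and DESeq2 called 107, of which 24 were higher and 83 lower in Dnmt2-/- sperm. Both Dnmt2-/- values lay below both Dnmt2+/+ values in 6176 sequences (12.2%) and above them in 4928 (9.77%). Against Dnmt2+/+ replicate 2 alone 923 of 78286 sequences were higher (1.18%) and 1532 lower (1.96%). Of the 917 and 1501 of these that are also among the 50460, Dnmt2+/+ replicate 1 lay on the same side of both Dnmt2-/- libraries in 356 and 317. Against Dnmt2+/+ replicate 1 alone 11 of 76843 were higher (0.0143%) and 0 lower, and all 11 were 41 to 43 nt long, the lengths that library was poor in. The sequence with the lowest p in edgeR was a 41-nt read at 9.86 and 17 CPM in Dnmt2-/- sperm, against 0.105 and 0.0733 CPM in Dnmt2+/+ sperm. Both Dnmt2+/+ libraries were low there, and it did not pass (log2 fold change 7.07 ± 1.25 SE, edgeR adjusted p = 1). Its read base 29 is a T that follows a T, where the read error falls, and Dnmt2+/+ replicate 2 lacks that error. The high-fat libraries, which lack it too, had 0.194 and 0.0752 CPM in Dnmt2-/- and 0.583 and 0.394 CPM in Dnmt2+/+ sperm. Dnmt2+/+ replicate 1 was poor in reads of this length. The part of either in this difference was not tested.

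MicroRNAs are about 22-nt RNAs that bind messenger RNAs through their seed, bases 2 to 8. Those on which the results turn are printed with the seed in capitals, from RefSeq (GRCm38.p6); miR-10a-5p and miR-10b-5p share a seed, as do miR-92a-3p and miR-92b-3p, and as do let-7a-5p, let-7c-5p and let-7f-5p.
miR-10a-5p: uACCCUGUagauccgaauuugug
miR-10b-5p: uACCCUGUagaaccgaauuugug
miR-92a-3p: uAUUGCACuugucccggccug
miR-92b-3p: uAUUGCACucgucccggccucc
let-7a-5p: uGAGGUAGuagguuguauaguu
let-7c-5p: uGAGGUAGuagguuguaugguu
let-7f-5p: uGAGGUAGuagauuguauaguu
miR-148a-3p: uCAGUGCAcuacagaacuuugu
miR-184-3p: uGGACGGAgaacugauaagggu
miR-881-3p: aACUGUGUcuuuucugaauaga
The gene entries used for them lie on chromosomes 11 (miR-10a-5p) and 2 (miR-10b-5p), 14 and 3 (miR-92a-3p and miR-92b-3p), 6 (miR-148a-3p), 9 (miR-184-3p) and X (miR-881-3p). Reads of a mature microRNA do not tell apart genes that share its sequence, so the gene named need not be the only source.

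Most microRNAs were lower in Dnmt2-/- sperm than in Dnmt2+/+ replicate 2, and over the 189 tested the median was close to that of Dnmt2+/+ replicate 1. The share of reads gave another order, since Dnmt2+/+ replicate 1 had the highest microRNA share (2.76%), with miR-148a-3p at 14801 CPM. Of the 189, edgeR called 0 (0%), with 29 at an unadjusted p under 0.05, all lower in Dnmt2-/- sperm, and DESeq2 called 0, with 62 at an unadjusted p under 0.05. In 68 (36.0%) both Dnmt2-/- values lay below both Dnmt2+/+ values, and in 0 (0%) above them. The median log2 fold change over microRNAs was -1.65 on the scale of all reads and -0.0124 after TMM scaling, which centres the bulk of microRNAs on 0.

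The median difference in log2(CPM + 1) over the 189 microRNAs was -0.04 between Dnmt2-/- replicate 1 and Dnmt2+/+ replicate 1, with 104 lower and 82 higher, and -0.13 between Dnmt2-/- replicate 2 and Dnmt2+/+ replicate 1, with 111 lower and 72 higher. Against Dnmt2+/+ replicate 2 it was -1.45, with 186 lower and 3 higher, and -1.28, with 174 lower and 15 higher. By this median the 3 libraries that share the read error were close together. Without Dnmt2+/+ replicate 1, 85 of 219 microRNAs were lower (38.8%) and 0 higher in edgeR, and of the 80 of these among the 189, Dnmt2+/+ replicate 1 lay on the same side in 25. Without Dnmt2+/+ replicate 2, 0 of 209 passed, with 9 at an unadjusted p under 0.05.

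**Figure D5:**
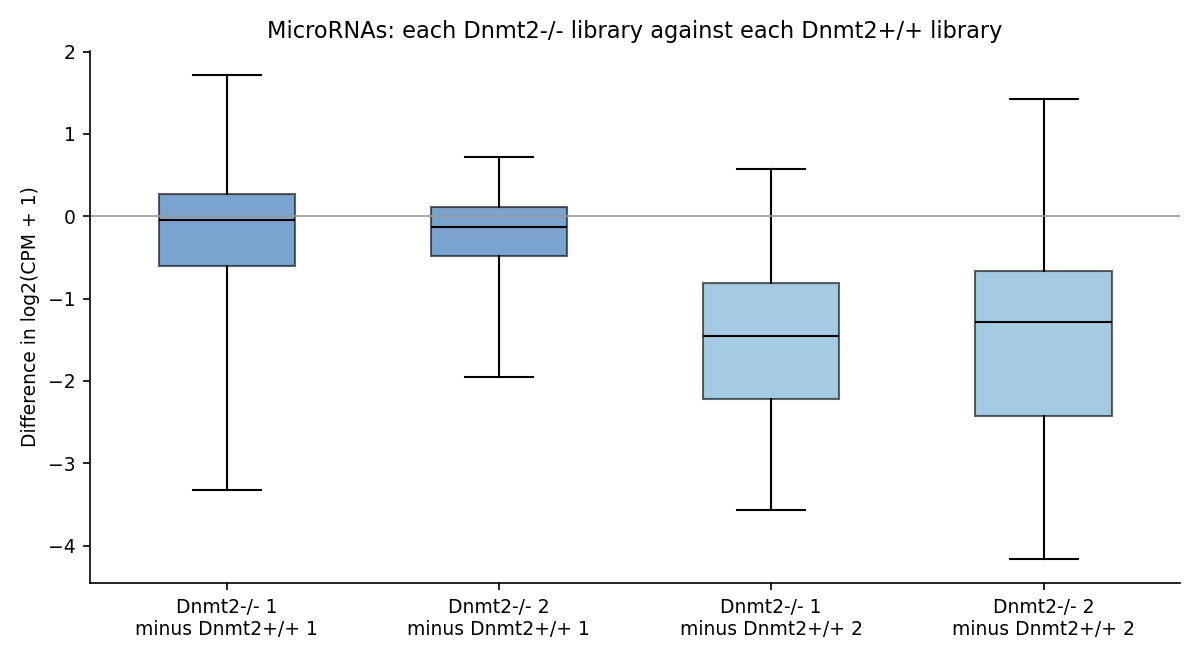
Differences in log2(CPM + 1) of 189 microRNAs for each pair of a Dnmt2-/- and a Dnmt2+/+ library (box: quartiles, line: median, whiskers: range). The medians are -0.04 and -0.13 against Dnmt2+/+ replicate 1 and -1.45 and -1.28 against Dnmt2+/+ replicate 2.

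The miR-10 pair was lower in Dnmt2-/- sperm by about the same amount against either wild-type library. miR-10a-5p, encoded in a Hox gene cluster, was at 1114 and 1102 CPM in Dnmt2-/- sperm, against 1956 and 2087 CPM in Dnmt2+/+ sperm (log2 fold change -0.87 ± 0.38 SE, edgeR adjusted p = 0.252). miR-10b-5p was at 908 and 912 CPM, against 1619 and 1735 CPM (-0.88 ± 0.38, adjusted p = 0.252). Libraries of 1 genotype were close together and the groups did not overlap. Without Dnmt2+/+ replicate 1 the values were -0.91 and -0.93, and without replicate 2 they were -0.82 and -0.83.

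miR-184-3p was at 73.0 and 84.2 CPM, against 329 and 174 CPM (-1.68 ± 0.55 SE, edgeR adjusted p = 0.252). miR-92a-3p was at 16.7 and 18.8 CPM, against 36.2 and 159 CPM (-2.46 ± 0.77, adjusted p = 0.252). Both were lower in Dnmt2-/- libraries than in either wild-type library, with the wild-type libraries far from each other. Without Dnmt2+/+ replicate 2 the log2 fold changes were -2.07 ± 0.49 for miR-184-3p and -1.03 ± 0.53 for miR-92a-3p (edgeR adjusted p of 0.61 and 0.627). Without replicate 1 they were -1.15 ± 0.51 and -3.17 ± 0.54 (adjusted p of 0.094 and 0.00972), so miR-92a-3p passed against Dnmt2+/+ replicate 2 alone. miR-92b-3p, which shares the seed of miR-92a-3p, had 0 reads in Dnmt2-/- libraries, against 0.263 and 1.61 CPM. miR-148a-3p, the most abundant microRNA, was at 3613 and 5710 CPM, against 14801 and 3993 CPM (-1.01 ± 0.62, adjusted p = 0.277). Here Dnmt2+/+ replicate 1 alone was high, and without it the log2 fold change was 0.22 ± 0.55.

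Of the let-7 members, let-7c-5p was at 829 and 800 CPM in Dnmt2-/- sperm, against 2177 and 906 CPM in Dnmt2+/+ sperm. let-7f-5p was at 852 and 629 CPM, against 1019 and 1123 CPM, and let-7a-5p at 365 and 222 CPM, against 428 and 491 CPM. All 3 were lower in both Dnmt2-/- libraries, and none passed (edgeR adjusted p of 0.349, 0.417 and 0.415). Without Dnmt2+/+ replicate 2 the log2 fold changes were -1.42, -0.46 and -0.54, and without replicate 1 they were -0.15, -0.60 and -0.74. miR-881-3p, a microRNA of a germ cell cluster on the X chromosome, was at 316 and 1044 CPM, against 1398 and 545 CPM, where the groups overlapped. miR-21a-5p, found in most somatic cells, was at 226 and 140 CPM, against 177 and 1501 CPM, with Dnmt2+/+ replicate 2 alone high.

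Markers of the cells that a sperm pellet can hold moved with the libraries. The 11 germ cell microRNAs all had reads, and summed to 371 and 1151 CPM in Dnmt2-/- sperm, against 1586 and 892 CPM in Dnmt2+/+ sperm, with 5 of 11 lower in both Dnmt2-/- libraries. The 10 microRNAs of epididymal epithelium, which include the miR-200 family, summed to 690 and 605 CPM, against 933 and 2452 CPM, with 3 of 10 lower in both. Over all 189 microRNAs 68 (36.0%) were lower in both, so the shares of both lists were near that of all. miR-200b-3p was at 210 and 93.6 CPM, against 156 and 846 CPM. Of 9 blood cell microRNAs 8 were counted. Of these, miR-150-5p was at 0 in all 4 libraries, and the list summed to 23.1 and 16.2 CPM, against 16.2 and 69.7 CPM. The endothelial miR-126a-3p was at 2.81 and 1.60 CPM, against 1.37 and 14.2 CPM. Of 5 muscle microRNAs only miR-206-3p was counted (0.0759 and 0.152 CPM, against 0.158 and 0.147 CPM). The other muscle microRNAs had no sequence to match, so whether they had reads is not known. Dnmt2+/+ replicate 2 was thus the highest library for the epithelial, blood and endothelial lists, as it was for most microRNAs, and the part of other cells in the microRNA differences was not tested. Of 3 liver microRNAs 2 were counted, at a sum of 16.5 and 22.6 CPM, against 27.1 and 20.4 CPM.

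The libraries can be ordered by how far apart they were. The median absolute difference in log2 level over the 189 microRNAs was 0.27 between the 2 Dnmt2-/- libraries, 0.352 and 0.289 between each of them and Dnmt2+/+ replicate 1, 1.45 and 1.32 between each of them and Dnmt2+/+ replicate 2, and 1.26 between the Dnmt2+/+ libraries. For mismatch sites the same 6 values were 0.141, 0.144, 0.119, 0.286, 0.323 and 0.349. For end positions they were 0.341, 0.337, 0.266, 0.486, 0.558 and 0.613. In these 3 measures Dnmt2+/+ replicate 1 lay nearer to the Dnmt2-/- libraries than to the other Dnmt2+/+ library. The starts of 3' fragments differed in this, with 0.667, 0.952, 1.14, 0.765, 0.805 and 1 in the same order.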

How the data were processed

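The deposited files of these 4 sperm libraries list each distinct read sequence with its count, per the file headers, and the counts are taken as raw, since they are whole numbers with a different total in each library. Adapter trimming and length limits are not given in the sources used here; of genome builds, the submitters' processing notes give mm10 and GRCm38, but no alignment was used. Of the 21 tRNA sequences, in 18 families by anticodon, 18 were rebuilt from the reads and 3 taken from RefSeq. Those rebuilt came from reads of the high-fat libraries, except Val-AAC and Val-CAC, which came from all sperm libraries pooled. The rRNA and Y RNA sequences were rebuilt from the high-fat libraries too. Reads were assigned by exact match to tRNAs, rRNA, Y RNA and RefSeq microRNA arms, allowing any 3' length up to 26 nt for microRNAs from their first 20 nt. Values are CPM of all reads or percentages of a tRNA's reads.

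Counts of sequences, families, microRNAs, end positions, start positions and mismatch sites were each tested with edgeR 4.0.16 (quasi-likelihood, R 4.3.3) over all 8 sperm libraries, with library totals as scale for levels and a tRNA's reads for positions, edgeR's filter on low counts, mismatch sites with a mean coverage of at least 1000, and Benjamini-Hochberg adjustment at 0.05. The script was tested on simulated data. DESeq2 1.42.0, TMM scaling, no filter, only the 4 normal-diet libraries, the replicate block, up to 1 mismatch and leaving out each library were alternatives. Figures used matplotlib 3.10.9 and tables pandas 2.3.3 under Python 3.11.15. Class shares have 95% binomial intervals of at most ± 0.027 percentage points, from counting error only, since reads carry no molecular identifiers.

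Named items were the fragments of the 3 substrates, Glu-CTC, Lys-CTT and His-GTG with their 3 commonest end and start positions, the 10 commonest mismatch sites and microRNAs, those that passed or the 3 with the lowest p, and those stated as chosen after their values were seen. The members, lists and tests were chosen with earlier results of these data known. As further alternatives, any base at read bases 29 and 30 and a crossed replicate block, were chosen after seeing the data. For 6 marker microRNAs, of the muscle, blood and liver lists, no sequence was used here, so they were not counted. Some sequences are not reported here.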

Additional observations from a re-analysis of the deposited data

Results flagged for a closer look

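9 values of the text had the genotypes in opposite order on the 2 diets, with no overlap between Dnmt2-/- and Dnmt2+/+ libraries on either diet. For each, the difference given is Dnmt2-/- minus Dnmt2+/+ on normal diet minus the same on high-fat diet. None of these differences was tested, and the high-fat libraries lack the read error of 3 of the normal-diet libraries. For Glu-CTC C32T among reads going on to base 33 it was 1.86 percentage points, and for a missing base 32 in Glu-CTC 0.0723 points. For starts of 3' fragments it was 3.18 points at base 38 of Asp-GTC and 6.04 points at base 54 of Gly-GCC. For ends at or beyond base 38 it was 4.4 points in Asp-GTC, 0.0229 points in Glu-CTC and 0.234 points in His-GTG. The His-GTG value holds for exact matches only: with any base at read bases 29 and 30 the normal-diet groups overlapped, at 0.0395% and 0.0377% in Dnmt2-/- libraries against 0 and 0.0442% in Dnmt2+/+ libraries. Reads of 35 to 40 nt, a length class next to those ends, differed in the same way by 8.12 points, with 10.2% and 14.9% in Dnmt2-/- and 20.6% and 18.8% in Dnmt2+/+ high-fat libraries. For Ala-AGC 5' fragments ending at base 31 it was -12.7 points, with 1.01% and 0.456% in Dnmt2-/- against 1.85% and 5.11% in Dnmt2+/+ sperm on normal diet, and 14.9% and 10.0% against 1.84% and 3.25% on high-fat diet. With any base at read bases 29 and 30 the normal-diet groups overlapped here too, at 9.6% and 8.34% against 16% and 5.96%.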

How the results depend on the processing

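The choice of wild-type library moved the counts of calls more than any other setting. Leaving out each library in turn gave 0 to 2455 distinct sequences, 0 to 17 families, 0 to 85 microRNAs, 0 start positions to 1, 0 mismatch sites to 69 and 0 end positions throughout; the highest values were all without Dnmt2+/+ replicate 1. DESeq2 called 107 sequences and 0 families. With no filter on low counts edgeR called 142 sequences, 1 start position and 21 mismatch sites. The 1 family called, Thr-TGT 5' fragments, was 0 families with only the 4 normal-diet libraries, with up to 1 mismatch and with any base at read bases 29 and 30. Dnmt2-/- and Dnmt2+/+ replicates with the same number on normal diet did not pair (correlations of their deviations from -0.493 to -0.0932; those of 1 genotype across diets were above 0), and the replicate block gave 0 calls in all 6 comparisons, families included, as did the crossed replicate block.

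Of 25 differences followed, 20 changed sign when 1 library was left out, among them the shares of tRNA 5' fragments (-3.13 to 6.49 points) and rRNA (-3.24 to 3.23) and the mean end of Gly-GCC (-0.0201 to 0.136). The 8 of these with a test follow. With TMM scaling the log2 fold change was 0.16 for Gly-GCC 5' fragments and 0.01 for Asp-GTC 3' fragments. Leaving out each library gave -0.56 to 0.30 for Gly-GCC 5', -0.26 to 0.98 for Glu-CTC 5', -0.30 to 1.28 for Asp-GTC 5', -1.65 to 1.08 for Asp-GTC 3', -0.06 to 0.54 for Gly-GCC ends at base 32, -1.04 to 0.06 at base 31, -1.67 to 0.22 for miR-148a-3p and -0.18 to 0.09 for Gly-GCC G6T. The cause was not tested. Depth limits base 38, with 100 to 9918 reads over it in the 3 substrates, and 3' fragments, at under 0.13% of reads; 2 libraries a group cannot reach a permutation p below 0.333.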
